A study of Bos taurus with 12 samples.

Results

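BEX3 and BEX4 are 2 small genes of the bovine X chromosome, and every probe set that carried one of these symbols alone was taken. Each gene had 1 such probe set, so the account covers 2 of 9155 named genes (2 of 24016 probe sets). The pair was chosen by its values on these same arrays, as genes whose level ran in opposite directions from Day 7 to Day 13 in embryos of different origin. The levels and differences of BEX3 and BEX4 are therefore given as a description, without a test.

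BEX proteins are short, largely unfolded adaptor proteins found in placental mammals, and their genes lie beside the related TCEAL genes. BEX3, also called NGFRAP1 or NADE, binds the p75 neurotrophin receptor, and that complex is known for steering cells towards death or survival. BEX4 is known for its contact with alpha-tubulin and the deacetylase SIRT2 at microtubules. Both genes are best known from brain, placenta and tumours.

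The study followed the bovine conceptus into the onset of elongation, when the blastocyst becomes ovoid and the trophoblast expands. It used Affymetrix bovine arrays on 12 pools, with 3 biological replicates in each of 4 groups. Embryos came either from fertilisation in vitro (IVF) or from superovulated animals (in vivo), and breed and sex were not named in the labels. A Day 7 pool held 25 blastocysts and a Day 13 pool held 5 conceptuses, and 75 ng of RNA went through 2-cycle labelling. Day 13 conceptuses of both origins had grown in recipient heifers after transfer of 10 blastocysts per animal. The words in vitro thus name where a conceptus began, since both Day 13 groups spent the last days in a uterus.

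Values are log2 intensities, where 1 unit is a doubling. A value was called above background when it exceeded 3.39, a level that 99 percent of the values of 45 control probe sets without a matching spike-in stayed below. Intensities of different probe sets are not comparable, so BEX3 and BEX4 were each compared only with themselves. In pooled embryos, fewer cells that express a gene and less RNA per cell cannot be told apart.

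In embryos of in vivo origin BEX4 was near background at Day 7 and high at Day 13. Its Day 7 values were 3.26, 3.59 and 3.70 (mean 3.52 ± 0.23, SD, n = 3), with 2 of 3 arrays above background. Its Day 13 values were 9.0, 10.33 and 9.10 (9.48 ± 0.74, SD, n = 3). The Day 13 mean was 5.96 ± 0.68 (SE) log2 units higher, or 62.2-fold, and the lowest Day 13 array lay far above the highest Day 7 array.

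In embryos of in vitro origin the course of BEX4 ran the other way. At Day 7 the values were 7.74, 5.94 and 7.77 (7.15 ± 1.05, SD, n = 3), all above background. At Day 13 they were 3.26, 3.92 and 5.43 (4.20 ± 1.11, SD, n = 3), with 2 of 3 arrays above background. The mean at Day 13 was 7.70-fold lower (log2 difference -2.94 ± 0.68, SE). The groups did not overlap, but the gap between the lowest Day 7 array and the highest Day 13 array was small.

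Set by origin, BEX4 was higher in the in vitro blastocysts at Day 7, by 3.63 ± 0.68 (SE) log2 units. At Day 13 it was lower in the conceptuses of in vitro origin, with a log2 difference of -5.27 ± 0.68 (SE), or 38.7-fold. In neither comparison did arrays of the 2 origins overlap. Among genes that varied on the arrays compared, groups did not overlap for 24.2% across days in vivo, 37.1% across days in vitro, 15.6% between origins at Day 7 and 24.2% between origins at Day 13.

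BEX3 had the same order of groups. In vivo its Day 7 values were 2.91, 5.24 and 5.90 (4.68 ± 1.57, SD, n = 3), with 2 of 3 arrays above background, the widest spread of any group. The Day 13 values in vivo were 10.21, 10.96 and 10.67 (10.6 ± 0.38, SD, n = 3), all well above every Day 7 array. The difference was 5.93 ± 0.81 (SE) log2 units, or 61.1-fold.

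In embryos of in vitro origin BEX3 was 7.48, 6.56 and 7.87 at Day 7 (7.31 ± 0.67, SD, n = 3). At Day 13 it was 5.21, 5.14 and 6.93 (5.76 ± 1.02, SD, n = 3). The highest Day 13 array exceeded the lowest Day 7 array, so for BEX3 the lower mean in vitro (log2 difference -1.54 ± 0.81, SE) came with overlapping groups. Between origins BEX3 was 2.62 ± 0.81 (SE) higher in vitro at Day 7. At Day 13 it was 28.9-fold lower in vitro (log2 difference -4.85 ± 0.81, SE), and the arrays did not overlap on either day.

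**Figure D1:**
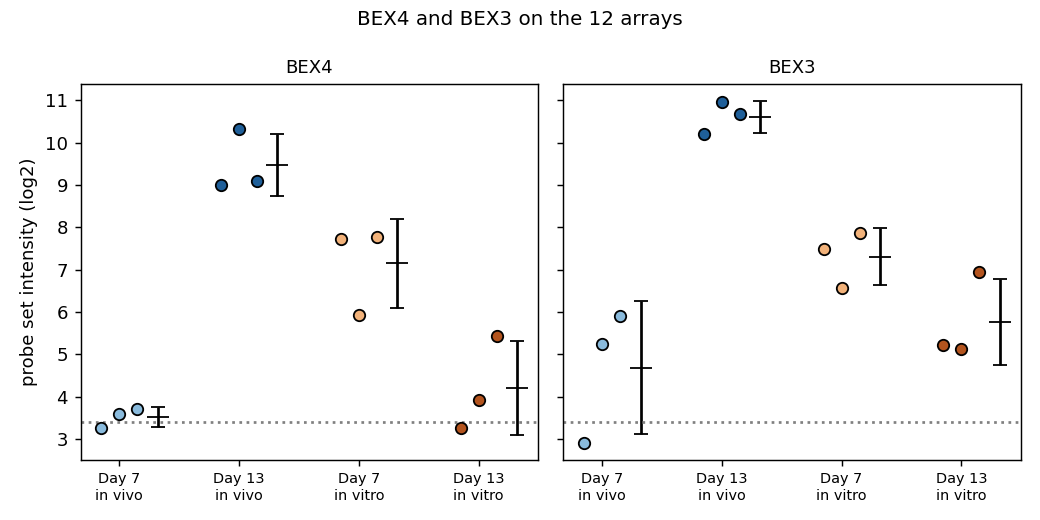
BEX4 (left) and BEX3 (right) on the 12 arrays, with the log2 probe set intensity on the y axis and the 4 groups on the x axis. Points are arrays, horizontal bars the mean, error bars the SD (n = 3), and the dotted line the background of 3.39. Day 13 in vivo lies highest, Day 7 in vitro next, and for BEX4 the Day 7 in vivo arrays lie at the background line.

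From high to low, both genes ran Day 13 in vivo, Day 7 in vitro, Day 13 in vitro, Day 7 in vivo. For BEX4 the neighbouring groups that overlapped were the lowest pair, Day 13 in vitro and Day 7 in vivo. For BEX3 these groups overlapped too, as did Day 7 in vitro and Day 13 in vitro. One BEX4 value, 3.26014, was listed for 2 arrays, the first replicates of Day 7 in vivo and of Day 13 in vitro. Such repeated values occurred on at least 2 arrays in 72.4% of probe sets. Arrays that share a value, for BEX4 its lowest, carry no order among them.

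The difference of the day effect, the Day 13 minus Day 7 difference in vitro less that in vivo, was -8.90 ± 0.97 (SE) for BEX4 and -7.48 ± 1.14 (SE) for BEX3. By signed size these stood at rank 1 and rank 3 of 24016 probe sets, counted from the most negative. The pair was chosen for its opposite course over these same arrays. These ranks and those that follow are thus shaped by that choice and are a description only. In the day comparison in vivo, BEX4 held rank 28 and BEX3 rank 30 from the highest. In the day comparison in vitro they held rank 303 and rank 1126 from the most negative. Between origins they held rank 13 and rank 44 from the highest at Day 7, and rank 4 and rank 7 from the most negative at Day 13. The in vitro day comparison gave both genes their least extreme ranks.

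Genes were also counted by their calls in the day contrasts. Calls here are limma's moderated test with Benjamini-Hochberg adjusted p below 0.05 over all probe sets. In the in vivo day comparison 2.70% of genes were called higher at Day 13 and 2.80% lower, against 5.00% and 5.77% in vitro. The share called higher in vivo and lower in vitro was 0.0218% of genes (2 of 9155). BEX4 falls in this count because it was chosen by these contrasts, so nothing is read from its place there, and the other gene was DKK3. Every Day 13 array lay above every Day 7 array in vivo and below in vitro for 0.459% of genes (42 of 9155), and 25 genes showed the reverse.

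DKK3, a secreted glycoprotein of the Dickkopf family of Wnt regulators, had the same order of sides as BEX4. It was not above background on any Day 7 in vivo array (2.27, 2.99 and 2.99) or any Day 13 in vitro array (2.27, 2.27 and 3.10). It reached 4.86, 4.45 and 4.60 at Day 7 in vitro and 6.56, 5.28 and 6.67 at Day 13 in vivo. Against the background level it was at least 6.86-fold higher at Day 13 than at Day 7 in vivo (limma adjusted p = 0.0028). In vitro it was at least 2.37-fold higher at Day 7 than at Day 13 (limma adjusted p = 0.0182). DKK3 was named after its values were seen.

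**Figure D2:**
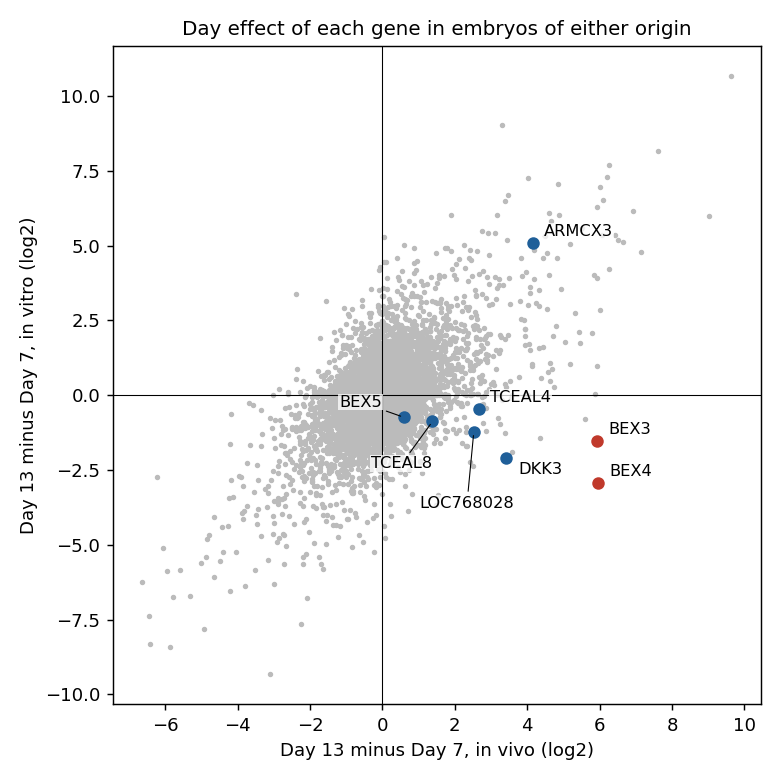
The Day 13 minus Day 7 log2 difference of each of 9155 genes in embryos of in vivo origin (x axis) and of in vitro origin (y axis), each gene by its brightest probe set. BEX4 and BEX3 (red) lie far to the right and below 0 on the y axis, LOC768028, TCEAL8, TCEAL4, BEX5 and DKK3 (blue) lie nearer the centre on the same side, and ARMCX3 lies high on both axes.

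Across the 12 arrays BEX3 and BEX4 followed each other closely, with Pearson r = 0.945 and Spearman rho = 0.946 (n = 12). These points share 4 group means by which the pair was chosen. After each group's mean was taken off, r of the deviations was 0.673 over the 12 arrays. These 12 deviations are not independent, since those of each group cancel. Such an r was not particular to the pair. Of the genes most like BEX4, named below, UCHL1 (0.849), S100A11 (0.817) and ITGB5 (0.774) followed it more closely within groups. LMO4 (0.632), SIAH2 (0.559) and DKK3 (0.115) did so less. Replicate 3 had the highest value of both genes in Day 13 in vitro, Day 7 in vitro and Day 7 in vivo, and replicate 2 had it in Day 13 in vivo. By r with BEX4, BEX3 stood at rank 1 of 5801 genes, and by r with BEX3, BEX4 stood at rank 2.

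The genes most like each member were picked by r over the same 12 arrays, from 5749 genes above background on at least 3 arrays, BEX genes and placeholder symbols left out. For BEX4 these were S100A11 (r = 0.928), LMO4 (r = 0.927), DKK3 (r = 0.922), ITGB5 (r = 0.920), SIAH2 (r = 0.902) and UCHL1 (r = 0.893). For BEX3 these were SIAH2 (r = 0.959), GPRC5B (r = 0.927), MAGED2 (r = 0.916), DKK3 (r = 0.911), LAMB1 (r = 0.910) and TKTL1 (r = 0.908). SIAH2 and DKK3 stood in both lists, and MAGED2 and TKTL1 are X-linked.

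UCHL1, a deubiquitinating enzyme abundant in neurons and germ cells, was nearest to BEX4 among these 6 in the size of the in vivo day difference (5.60 against 5.96), but not of the in vitro one (-0.80 against -2.94). It read 2.73, 2.23 and 3.71 at Day 7 in vivo and 8.07, 9.11 and 8.29 at Day 13 in vivo. In vitro it read 7.00, 5.13 and 7.69 at Day 7 and 5.44, 4.68 and 7.32 at Day 13, where the groups overlapped. Its deviations within groups followed those of BEX4 (r = 0.849, 12 arrays), the highest such r of the 6. The lowest was that of DKK3 (r = 0.115). For the 6 genes most like BEX3 the r of deviations ran from 0.267 (TKTL1) to 0.927 (GPRC5B), with DKK3 at 0.478.

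SIAH2, a ubiquitin ligase, had group means of 6.10 ± 0.51, 6.87 ± 0.27, 7.66 ± 0.29 and 6.58 ± 0.10 (SD, n = 3) at Day 7 in vivo, Day 7 in vitro, Day 13 in vivo and Day 13 in vitro. Its range was thus much narrower than that of BEX3. S100A11, a calcium-binding protein, averaged 3.89, 6.04, 7.47 and 4.13 in the same order, with SDs from 0.83 to 1.41. ITGB5, an integrin subunit, spanned only 15.11 to 15.33 between its group means.

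The relatives of the pair moved less. Of 4 other measured genes of the BEX and TCEAL family, 1 rose from Day 7 to Day 13 in vivo, where 2.70% of all genes did, and 0 of 4 were called by limma in each of the other 4 comparisons. At an unadjusted p below 0.05 the counts were 2 across days in vivo, 2 across days in vitro, 1 and 3 between origins at Day 7 and Day 13, and 3 for the difference of the day effect. The shares of all genes at that p were 19.0%, 26.5%, 8.76%, 21.2% and 14.2% in the same order. The median log2 difference of these 4 was 0.99 across days in vivo and -0.61 across days in vitro, beside 0 for all probe sets in both. LOC768028, which RefSeq also lists as BEX2, was added after the values were seen and stands outside these counts.

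TCEAL8, a nuclear protein related to elongation factor A, was the one called. It read 9.90, 8.91 and 9.85 at Day 7 in vivo and 10.94, 11.15 and 10.73 at Day 13 in vivo, without overlap. The difference was 1.38 ± 0.31 (SE), with a limma adjusted p of 0.0497. That call was lost under 20 of 24 alternatives, the replicate block included (adjusted p = 0.0843), and the adjusted p reached 0.385. Leaving out any 1 array other than the first replicate of Day 7 in vitro ended it (adjusted p from 0.066 to 0.132). In vitro it read 11.35, 10.53 and 10.60 at Day 7 and 10.06, 10.07 and 9.71 at Day 13, a difference of -0.88 ± 0.31 (SE, limma adjusted p = 0.15).

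LOC768028 also had non-overlapping groups in all 4 pairs, on a smaller scale than BEX4. Its Day 7 values were 6.83, 6.54 and 6.84 in vivo and 7.90, 7.18 and 8.38 in vitro. Its Day 13 values were 7.61, 9.90 and 10.28 in vivo and 6.08, 6.84 and 6.84 in vitro, the last 2 exactly the same. It did not pass limma's threshold across days in vivo (2.52 ± 0.65, SE, adjusted p = 0.0865) or between origins at Day 13 (-2.67 ± 0.65, SE, adjusted p = 0.0991). With arrays centred on ribosomal protein genes it passed both, at limma adjusted p = 0.0278 and 0.0216. It passed neither with quantile normalization (0.0754 and 0.0817) or with median-centred arrays (0.0749 and 0.0837).

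TCEAL4 read 7.76, 6.89 and 5.41 at Day 7 in vivo, against 8.96, 9.89 and 9.20 at Day 13 in vivo. The difference of 2.66 ± 0.62 (SE) had a limma adjusted p of 0.0588. This became 0.0451 with median-centred arrays, 0.0374 with arrays centred on ribosomal protein genes and 0.0593 with quantile normalization. In vitro TCEAL4 overlapped between days (7.81, 7.94 and 8.51, then 7.74, 6.75 and 8.34). BEX5 stayed between 4.01 and 6.23 on all arrays, and 4 arrays held the same value of 5.07. Both TCEAL1 probe sets were at background on every array.

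The order of the genes on the X chromosome was taken from RefSeq's ARS-UCD2.0 annotation. Protein-coding genes run BEX3, TCEAL9, TCEAL7, LOC768028, LOC104970008, TCEAL8, BEX4. Among measured genes TCEAL4 and TCEAL1 come next. Of the 5 genes between the pair, LOC768028 and TCEAL8 were measured under a single symbol. Over the 12 arrays the r with BEX4 was 0.872 for LOC768028, 0.816 for TCEAL8 and 0.810 for TCEAL4. It was -0.144 for CSTF2, the next measured gene on the BEX3 side, and -0.108 for MORF4L2 on the TCEAL side. Among the measured genes with an r here, those above 0.8 thus ran from BEX3 to TCEAL4. TCEAL1, the next measured gene after TCEAL4, was at background on every array and had no r. Each r includes the differences between group means, by which BEX4 was chosen. The share of all genes with an r above 0.8 was not counted. Whether these neighbours follow BEX4 within groups, or are regulated together, was not tested.

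**Figure D3:**
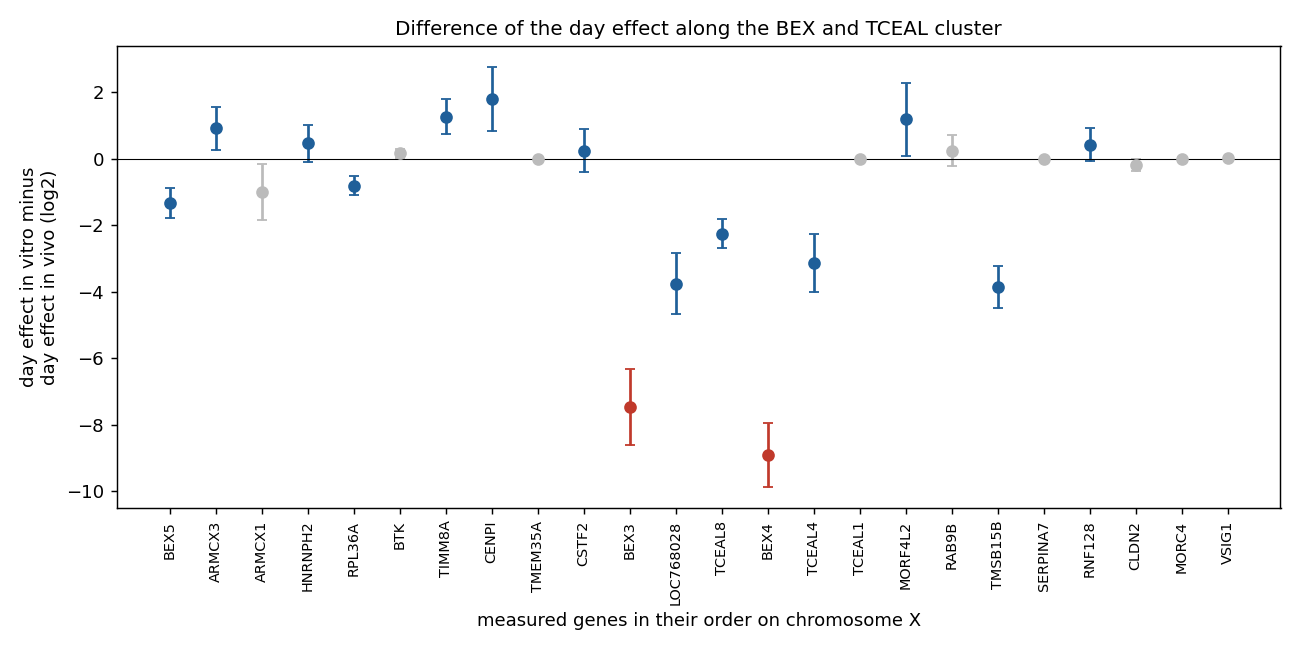
Difference of the day effect in log2 units (y axis, in vitro minus in vivo, error bars SE from the limma fit) for measured genes in their order on the X chromosome (x axis, not to scale). BEX3 and BEX4 are red, genes above background on fewer than 3 arrays grey. BEX4 stands at -8.90 and BEX3 at -7.48, while LOC768028 (-3.76), TCEAL8 (-2.26), TCEAL4 (-3.14) and TMSB15B (-3.85) are also below 0 and CSTF2 and MORF4L2 lie near or above 0.

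ARMCX3, an armadillo-repeat protein of the outer mitochondrial membrane encoded nearby, took another course. It averaged 3.52 at Day 7 in vivo and 3.61 at Day 7 in vitro, close to background. At Day 13 it averaged 7.68 in vivo and 8.69 in vitro. It rose in both origins, by 4.16 ± 0.45 (SE, limma adjusted p = 0.00186) in vivo and 5.08 ± 0.45 (SE, limma adjusted p = 0.000456) in vitro, and it stayed called under all 24 alternatives. Its relative ARMCX1 was above background on 1 array. TMSB15B, a thymosin that binds actin, fell across days in vitro (-4.11 ± 0.45, SE, limma adjusted p = 0.00127), from 7.07 to 2.96 with 1 Day 13 array above background, and averaged 4.31 and 4.05 in vivo.

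The receptor that BEX3 binds was hardly detected. NGFR, which encodes the p75 neurotrophin receptor, was at background on 11 arrays and read 3.66 on 1 Day 13 in vivo array. In the p75 pathway list, chosen with earlier results known, 25 of 39 genes were measured and 5 of these were at background on all arrays. Across days in vivo 1 rose and 2 fell, beside 2.70% and 2.80% of all genes. Across days in vitro 0 rose and 2 fell, beside 5.00% and 5.77%. At an unadjusted limma p below 0.05, 12% of the list moved across days in vitro (3 genes, 1 upward), beside 26.5% of all genes. The median log2 difference of the list was 0.075 in vivo and 0 in vitro, where that of all probe sets was 0.

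The genes called there were MAGEH1, NDN and BAD. MAGEH1, an X-linked MAGE protein, rose in vivo from 5.26, 5.09 and 5.09 to 6.31, 7.45 and 7.11 (1.81 ± 0.31, SE, limma adjusted p = 0.016). The call was lost under 5 of 24 alternatives, among them without Day 7 in vivo replicate 2 (adjusted p = 0.054) or 3 (0.0501) and without Day 13 in vivo replicate 3 (0.0515). NDN, the growth suppressor necdin, fell in both origins, with log2 differences of -3.17 ± 0.59 (SE, limma adjusted p = 0.0227) in vivo and -5.50 ± 0.59 (SE, limma adjusted p = 0.00124) in vitro.

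NDN stayed called in vitro under all 24 alternatives, but in vivo it lost its call under 6, including without any single Day 7 in vivo replicate (adjusted p from 0.0662 to 0.0692) and without Day 13 in vivo replicate 1 (0.0722) or 2 (0.054). BAD, a pro-death BCL2 relative, also fell in both origins, from 6.64 to 4.93 in vivo (limma adjusted p = 0.029) and from 7.00 to 4.94 in vitro (limma adjusted p = 0.00881). With a replicate block its adjusted p in vivo was 0.0856, and this call was lost under 11 of 24 alternatives. They include leaving out the first replicate of Day 7 in vitro, Day 13 in vitro or Day 13 in vivo, the third of Day 13 in vivo, or any of Day 7 in vivo (0.0506 to 0.101). The in vitro call of BAD was lost under 3 of 24, with the poly-A covariate (0.234) and without Day 13 in vitro replicates 1 and 2 (0.0979) or 1 and 3 (0.123).

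MAGED1, which binds the same receptor, lay between 8.08 and 9.52 on all arrays and was not called. YWHAE, the 14-3-3 protein known as a BEX3 partner, lay between 10.23 and 13.03 and was not called. Between origins limma called 0 of the 25 genes on either day. Of all genes 0.218% were called higher and 0.0765% lower in vitro at Day 7, and 0.852% higher and 0.786% lower at Day 13. In the difference of the day effect 0 of 25 were called, beside 0.131% of all genes above 0 and 0.382% below. At an unadjusted limma p below 0.05 the counts were 1 at Day 7, 5 at Day 13 and 5 for the difference. The shares of all genes at that p were 8.76%, 21.2% and 14.2%.

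On the side of BEX4, 17 of 26 genes of the tubulin and acetylation list were measured, of which 2 were at background on all arrays. SIRT2, the deacetylase that BEX4 contacts, averaged 4.0, 3.89, 4.36 and 4.47 at Day 7 in vivo, Day 7 in vitro, Day 13 in vivo and Day 13 in vitro, and was not called. All 3 of its Day 7 in vivo arrays held exactly the same value, so small differences near that level carry little meaning. PLK1, the mitotic kinase, averaged 6.70, 6.93, 6.98 and 6.91 and was not called either. Of the 17 genes, 1 rose across days in vivo (2.70% of all genes) and 1 was lower in vitro at Day 13 (0.786% of all genes), and limma called 0 in the other 3 comparisons. At an unadjusted p below 0.05 these held 4 genes across days in vitro, 2 between origins at Day 7 and 4 for the difference of the day effect, beside 26.5%, 8.76% and 14.2% of all genes.

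The gene that rose was TUBB2B, a beta-tubulin. Its values were 8.39, 7.22 and 9.32 at Day 7 and 13.18, 13.77 and 12.32 at Day 13 in vivo (4.79 ± 0.63, SE, limma adjusted p = 0.00466). In vitro it was 10.10, 8.96 and 10.71 at Day 7 and 12.06, 12.07 and 12.59 at Day 13, also without overlap but not called. The in vivo call was lost with the GAPDH covariate (adjusted p = 0.0664) and with the compared groups alone (0.0964). STMN1, which takes microtubules apart, read 11.80, 11.89 and 11.36 in vivo and 10.09, 10.30 and 10.85 in vitro at Day 13. Its difference of -1.27 ± 0.23 (SE, limma adjusted p = 0.0476) lost its call under 18 of 24 alternatives, among them the replicate block (adjusted p = 0.126) and leaving out any 1 array other than the third replicate of either Day 13 group (up to 0.162).

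Several other measures moved with the groups. The summed log2 level of 11 hypoblast markers, genes of the inner layer that becomes yolk sac, was 79.3 to 84.7 at Day 7 in vivo and 87.8 to 89.5 at Day 7 in vitro. It was 99.5 to 107.1 at Day 13 in vivo and 84.7 to 90.2 at Day 13 in vitro. Like BEX3 and BEX4, this sum was highest at Day 13 in vivo and lowest at Day 7 in vivo. Its 2 in vitro groups overlapped, as they did for BEX3 but not for BEX4. The members did not all share this order. Across days in vivo 8 of the 11 had an unadjusted limma p below 0.05, 6 of them upward, beside 19.0% of all genes. GATA6 (mean 13.60 at Day 7, 12.22 at Day 13) and FN1 (14.13, 13.49) were highest at Day 7 in vivo. SPARC was level in vivo (6.05, 5.99).

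Of the 11, APOA1, APOA2, APOE, NID2 and LAMB1 rose across days in vivo, where 2.70% of all genes rose, and GATA6 fell across days in vitro, where 5.77% fell. LAMB1, a laminin chain, is also one of the genes most like BEX3. APOA2, an apolipoprotein of yolk sac and liver, was not above background on any Day 7 array and read 7.63, 10.16 and 6.82 at Day 13 in vivo. At Day 13 in vitro it read 2.27, 2.68 and 4.76, with 1 of 3 arrays above background. It was lower there than in vivo (limma adjusted p = 0.0403), and no fold is given because the in vitro mean of 3.24 lies below background. Of the transcription factors in the list, HNF4A was at background on all arrays and GATA4 on all but 1. The third, GATA6, was bright in every group, with means from 11.75 at Day 13 in vitro to 13.60 at Day 7 in vivo. The part of hypoblast cells in the BEX values was not tested.

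The summed level of 11 trophoblast markers was 79.2 to 86.4 at Day 7 in vivo and 77.0 to 88.0 at Day 7 in vitro. It was 101.2 to 107.5 at Day 13 in vivo and 116.1 to 123.7 at Day 13 in vitro, so it was high at Day 13 in both origins. Across days 4 of the 11 rose in vivo and 7 rose in vitro, beside 2.70% and 5.00% of all genes. The summed level of 12 neural and endocrine markers was 51.4 to 54.9, 54.1 to 57.0, 53.8 to 57.8 and 46.4 to 49.6 at Day 7 in vivo, Day 7 in vitro, Day 13 in vivo and Day 13 in vitro, with 4 genes at background on all arrays. The 4 epiblast markers summed to 21.3 to 24.1, 18.6 to 23.1, 24.3 to 27.6 and 20.5 to 21.7 in the same order of groups. Their sum was thus also highest at Day 13 in vivo, without overlap with another group. The members did not all share this. CRIPTO was highest at Day 13 in vivo (mean 11.32), but POU5F1 was highest at Day 7 in vitro (10.78, against 7.69 at Day 13 in vivo). Of the endometrium, cumulus and blood markers, 6 of 8, 7 of 9 and 4 of 5 were at background on all arrays.

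XIST, the RNA that coats the inactive X chromosome in female cells, set 2 arrays apart. It read between 9.46 and 11.35 on 10 arrays, but 4.28 and 2.23 on Day 13 in vitro replicates 1 and 3. The Y-linked gene ZFY was at background on all arrays. Leaving out these 2 arrays, an alternative chosen after the data were seen, left replicate 2 as the only array of the group. It gave BEX4 log2 differences of -3.23 across days in vitro and -5.55 between origins at Day 13. For BEX3 the same differences were -2.17 and -5.48. These rest on 1 array (BEX4 3.92, BEX3 5.14), and the part of the low-XIST arrays in the result was not tested further.

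The RNA spiked into each sample before labelling was also low in Day 13 in vitro. The mean poly-A spike-in signal was 9.38, 10.61 and 13.06 on its replicates 1, 2 and 3, and 13.38 to 14.98 on the other 9 arrays. The replicate with the highest spike-in signal also had the highest BEX3 and BEX4 values of that group. With the spike-in mean in the fit, the day difference in vitro was -0.94 for BEX4 and -0.22 for BEX3, and the Day 13 difference between origins was -3.01 and -3.35. Without replicates 1 and 2 only replicate 3 was left in the group, the highest of its arrays for both genes, and the same differences were -1.72 and -0.37, then -4.05 and -3.68. With the covariate, and on the remaining array, the in vitro day difference of both genes was smaller than with all arrays, and its sign did not turn. The part of the spike-in signal in the result was not tested further. Leaving those arrays out does not touch the differences between origins at Day 7 and across days in vivo.

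The hybridization spike-ins, added after labelling, were 10.70, 11.13 and 12.24 on Day 13 in vitro and 12.15 to 13.53 on the other arrays. The GAPDH 3' minus 5' difference, a sign of how complete the labelled RNA was, was 5.58, 5.65 and 5.59 at Day 7 in vivo, where BEX3 and BEX4 were lowest. It was 3.40, 4.19 and 3.47 at Day 7 in vitro, 4.62, 2.85 and 4.57 at Day 13 in vivo and 2.53, 2.61 and 4.17 at Day 13 in vitro. With it in the fit, the Day 7 difference between origins was 3.44 for BEX4 and 2.98 for BEX3, and the day difference in vivo was 5.80 and 6.23.

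**Figure D4:**
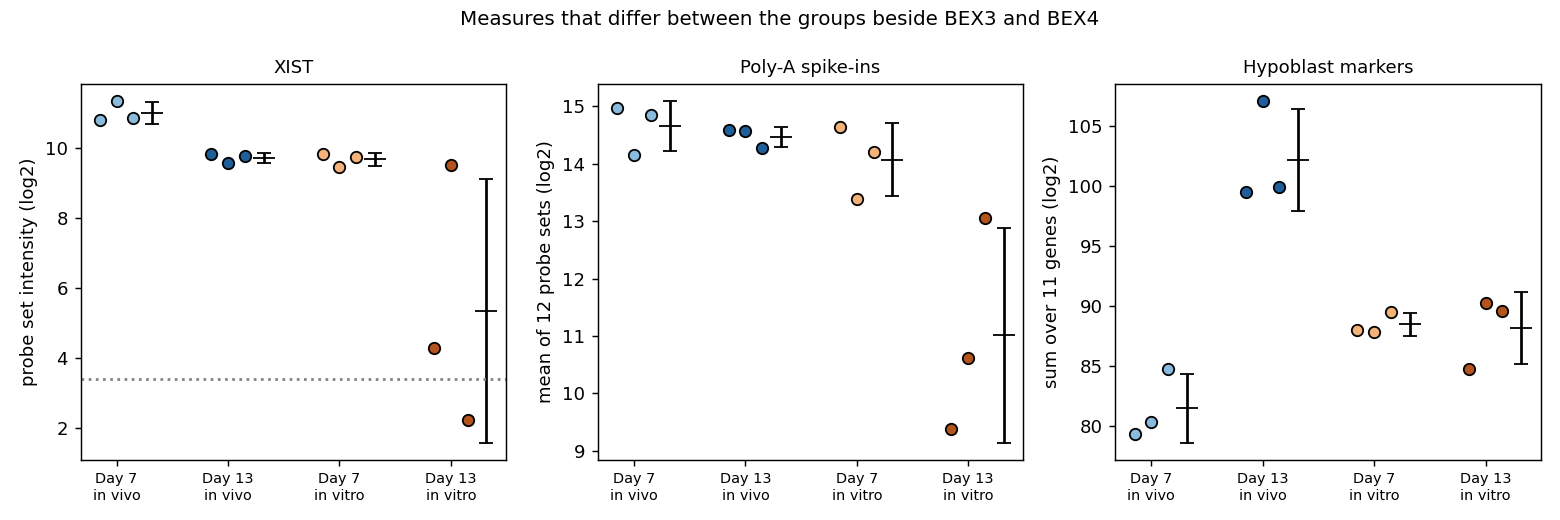
Measures that differ between the groups beside BEX3 and BEX4: XIST (left, log2 intensity), the mean of 12 poly-A spike-in probe sets (middle, log2) and the summed log2 level of 11 hypoblast markers (right). Points are arrays, bars mean and SD (n = 3), and the dotted line is the background of 3.39. Day 13 in vitro holds the 2 low XIST values and the lowest spike-in signals, and Day 13 in vivo has the highest marker sums.

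The X chromosome as a whole gave a smaller shift with the same signs. Among 183 X-linked genes above background on at least 3 arrays, BEX3 and BEX4 left out, the median log2 difference was 0.28 across days in vivo and -0.24 across days in vitro. It was 0.32 between origins at Day 7 and -0.20 at Day 13, in vitro minus in vivo. The 5608 genes of other chromosomes had medians of 0.02, -0.02, 0.12 and 0.09 in the same comparisons. Called genes on the X were 16 higher and 2 lower across days in vivo, and 10 higher and 23 lower in vitro. As shares these were 8.74% and 1.09% in vivo and 5.46% and 12.6% in vitro, beside 3.83%, 4.40%, 7.92% and 8.83% on other chromosomes.

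Without the 2 arrays of low XIST, the X-linked median across days in vitro was -0.04, with 7 of 183 genes higher and 10 lower, beside 304 and 348 of 5608 on other chromosomes. Without the 2 arrays of lowest spike-in signal it was -0.41, with 2 higher and 11 lower, beside 117 and 139. Either way 1 Day 13 in vitro array was left. Between origins at Day 13 the X-linked median of -0.20 became -0.03 without the low-XIST arrays and -0.40 without the low spike-in arrays. On other chromosomes these medians were 0.08 and 0.03. The difference of the day effect had an X-linked median of -0.53 with all arrays, against -0.01 on other chromosomes. It was -0.37 and -0.78 without either pair of arrays. BEX4 and BEX3, at -8.90 and -7.48, lay far below that median.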

How the data were processed

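Total RNA of 12 embryo pools was hybridised to Affymetrix bovine arrays. The authors deposited 1 log2 value per probe set and array. Per the submitters' processing notes RMA, GCRMA and limma were used, with no roles or versions named, and the genome build is not given in the sources used here. Many probe sets have exactly the same value on several arrays, so such values carry little order. No scanner files were used, so the background correction could not be varied, and the number of arrays limits the precision.

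Of 24128 probe sets, 112 controls were left out. GEO's platform annotation gave 1 symbol to 13292 of 24016 probe sets, several to 86 and none to 10638. Each gene was read from its brightest probe set. RefSeq lists WBP5, an older name also used for TCEAL9, among the synonyms of BEX3, so that symbol can be ambiguous. RefSeq's ARS-UCD2.0 annotation gave the order of genes on the X chromosome and the split into X-linked and other genes, and none of its coordinates are printed. Group means of all 4 groups were fitted with limma 3.58.1 (R 4.3.3), and p-values were adjusted by Benjamini-Hochberg over all 24016 probe sets, with a threshold of 0.05. The fit was tested on simulated data.

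The members, gene lists and the background rule were chosen with earlier results of these data known. The genes named are the members, their measured family, their neighbours between CSTF2 and MORF4L2, the listed partners, called list genes and the 6 genes most like each member. TMSB15B and DKK3 were picked out once their values were known. The labels call the replicates biological. Same-numbered arrays of different groups were not paired: 3 of 18 correlations of their deviations were above 0.1 (median -0.063). Alternatives covered scaling, spike-in and GAPDH 3'-5' covariates, filters, the variance model, a replicate block and arrays left out.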

Additional observations from a re-analysis of the deposited data

Results flagged for a closer look

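Among the genes examined one by one, 4 had every Day 13 array above every Day 7 array in vivo and below in vitro, as did 42 of all 9155 genes. For BEX4 the difference of the day effect (in vitro minus in vivo) was -8.90, which was not tested because the gene was chosen by it. For TCEAL8 it was -2.26 (limma adjusted p = 0.088) and for LOC768028 it was -3.76 (limma adjusted p = 0.184), so neither passed the threshold. For DKK3 it was -5.51 (limma adjusted p = 0.00671), measured against 2 groups that were not above background on any array.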

How the results depend on the processing

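Of 258 differences of BEX3 and BEX4 under alternatives, 246 moved by less than the spread between replicates, 12 moved by more and 0 changed sign. Many of the 246 could not move. The variance models, the replicate block, the filter and the compared groups alone leave these differences as they were. So do the mean over probe sets, with 1 per gene, and leaving out an array of a group not compared. The 246 are thus no measure of robustness. The 12 that moved by more all came from the poly-A covariate or from leaving out Day 13 in vitro replicates 1 and 2, and the cause was not tested. With the covariate BEX4 was -0.94 across days in vitro, -3.01 between origins at Day 13 and -7.02 for the difference of the day effect, and BEX3 was -0.22, -3.35 and -6.23. Without these arrays BEX4 was -1.72, -4.05 and -7.68, and BEX3 -0.37, -3.68 and -6.31.

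With 1 array left out, BEX4 ranged over 5.53 to 6.20 (days in vivo), -3.56 to -2.47 (days in vitro), 3.32 to 4.23 (Day 7), -5.89 to -4.80 (Day 13) and -9.51 to -8.43 (difference), and BEX3 over 5.05 to 6.54, -2.13 to -1.23, 1.74 to 3.23, -5.44 to -4.54 and -8.09 to -6.59.

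In the same order, 911, 1804, 50, 288 and 96 probe sets were called, and 6, 3, 0, 1 and 0 genes of the 4 gene lists. Leaving out 1 array gave 676 to 951, 913 to 2898, 24 to 116, 135 to 2058 and 64 to 1083 probe sets, and 2 to 5, 3 to 6, 0 to 0, 0 to 5 and 0 to 2 list genes. The 2898, 2058 and 1083 were all reached without Day 13 in vitro replicate 3, and other single arrays of the groups compared also moved these counts by over 1.5 times. Counts that moved by over 1.5 times follow. The poly-A covariate gave 199 probe sets for days in vitro, 29 at Day 7, 9 at Day 13 and 12 for the difference. Without Day 13 in vitro replicates 1 and 2 these were 902, 13, 459 and 424. Without replicates 1 and 3, chosen after seeing the data, they were 13 at Day 7, 1247 at Day 13 and 952 for the difference, with 3 and 2 list genes in the last pair. Centring on ribosomal protein genes gave 1774 for days in vivo, 681 at Day 13 and 188 for the difference, with 5 list genes for days in vitro and 2 at Day 13. Centring on medians gave 477 at Day 13. The GAPDH covariate gave 513 for days in vivo, 14, 174 and 175, with 2 list genes for days in vivo. The replicate block gave 568 for days in vivo, 12, 119 and 47. Among called genes of the 4 gene lists it ended only the calls of TCEAL8, BAD in vivo and STMN1. Calls of genes outside these lists, such as DKK3, TMSB15B and the hypoblast markers, were not followed under the alternatives. Keeping probe sets above background on at least 3 arrays gave 1478, 2886, 77, 1215 and 277, with 7 list genes for days in vitro, 7 at Day 13 and 1 for the difference. Fitting the compared groups alone gave 241, 787, 3 and 0, with 2 list genes for days in vivo, and could not be run for the difference. At Day 13 the trend gave 2 list genes, and robust variance, both covariates, Day 13 in vitro replicates 1 and 2 left out, the block and the compared groups alone gave 0.

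Centring on ribosomal protein genes moved the median of all probe sets by -0.49, 0.13, -0.53, 0.09 and 0.62 and the share of calls above 0 from 44.8%, 62.0% and 36.5% to 19.6%, 26.4% and 72.9% for days in vivo, Day 7 and the difference. Quantile normalization gave 50.0% at Day 7 and 43.4% at Day 13, where the main share was 53.8%. BEX4 at Day 7 in vivo and Day 13 in vitro lies near background, which limits its differences from below.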
